A study of Mus musculus with 84 samples.

Results

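The liver makes most of the complement and clotting proteins of the blood, together with the acute phase proteins whose synthesis changes when cytokines signal infection or injury. Expression of 41 listed genes of this system was followed in mouse liver after dietary exposure to 3 organophosphate pesticides (OPPs). A listed gene was kept when its Ensembl identifier had a row in the table of raw counts and a median count above 8 over all mice. Of the 41 genes, 39 met this rule, out of 10415 genes that did so among the 17695 in the table. The other two were Cd14, a co-receptor for bacterial lipopolysaccharide, with a median count of 1, and Il6ra, the receptor subunit that binds interleukin 6, with a median count of exactly 8.

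Livers of 84 male B6C3F1 mice, a first-generation hybrid strain, were profiled by TempO-Seq, in which detector probes that hybridize to a transcript are ligated and sequenced. There were 12 groups of 7 mice: control mice on plain AIN-93G diet, and mice given that diet with fenthion (FT) at 2.5, 5, 10 or 20 ppm, methidathion (MT) at 10, 25, 50 or 100 ppm, or parathion (PT) at 20, 40 or 80 ppm. Exposure began at 8 weeks of age and lasted 7 days, and RNA was taken from frozen liver. Parathion was also fed at a higher dose, which the study left out because of illness and deaths, so 80 ppm is the highest parathion dose profiled and not the highest given. The study, citing its earlier report, states that body weight and relative liver weight were significantly reduced at PT 40 and 80 ppm. The experiment ran in blocks numbered 1, 3 and 4, which gave 2, 3 and 2 mice to every group, and RNA was isolated by personnel labelled EA for 77 mice and EPA for 7 mice, of which 2 were controls. Total counts ranged from 6950381 to 15300589 per mouse, so that 3 counts corresponded to between 0.196 and 0.432 CPM, the count scaled to a common library total. In bulk tissue, fewer cells of a type and less RNA per cell cannot be told apart.

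Complement is a cascade. C1 or the mannose-binding lectins start it on a target surface, C3 is then cleaved and amplified through factor B, and C5, C6, C7, C8 and C9 finally assemble into a pore, the membrane attack complex. Regulators such as C1 inhibitor, factor I and vitronectin hold the cascade in check. Fibrinogen, built of 3 chains from 3 neighbouring genes, is the substrate of the clot. Interleukin 6 and interleukin 1 act on hepatocytes through STAT3, C/EBP beta, C/EBP delta and NF-kB to set the level of many of these genes.

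The promoters of the 5 genes with the largest called change at PT 80 ppm that had an entry in the RefSeq promoter table are shown, because the factors named above act on such sequences. Of the 39 genes, 29 had an entry, which covers 250 bases before and 50 bases after the start of the gene (build GRCm38.p6, an older build than that of the counts). Capitals mark matches, on either strand, to TTGCNNAA for C/EBP, TTCNNNGAA for STAT, TATAAA for the TATA box or the NF-kB motif. No 2 matches in these 5 sequences overlapped. C9 is at chr15:6445096-6445395 on the plus strand, Steap4 at chr5:7960222-7960521 on the plus strand, C6 at chr15:4726960-4727259 on the plus strand, Lrg1 at chr17:56121897-56122196 on the minus strand and Apcs at chr1:172895005-172895304 on the minus strand, each written 5′ to 3′ along its gene.
C9: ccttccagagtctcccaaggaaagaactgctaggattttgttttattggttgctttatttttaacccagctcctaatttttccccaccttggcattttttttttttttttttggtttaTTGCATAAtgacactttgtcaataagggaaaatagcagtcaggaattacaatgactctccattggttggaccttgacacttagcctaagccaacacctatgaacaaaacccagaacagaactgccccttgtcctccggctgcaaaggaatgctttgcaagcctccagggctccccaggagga
Steap4: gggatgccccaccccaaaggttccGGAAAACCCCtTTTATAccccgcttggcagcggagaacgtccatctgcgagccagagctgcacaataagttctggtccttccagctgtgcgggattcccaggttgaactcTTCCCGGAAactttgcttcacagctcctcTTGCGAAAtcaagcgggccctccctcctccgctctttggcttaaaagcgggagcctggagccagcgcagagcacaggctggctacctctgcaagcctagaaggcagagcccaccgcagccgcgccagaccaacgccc
C6: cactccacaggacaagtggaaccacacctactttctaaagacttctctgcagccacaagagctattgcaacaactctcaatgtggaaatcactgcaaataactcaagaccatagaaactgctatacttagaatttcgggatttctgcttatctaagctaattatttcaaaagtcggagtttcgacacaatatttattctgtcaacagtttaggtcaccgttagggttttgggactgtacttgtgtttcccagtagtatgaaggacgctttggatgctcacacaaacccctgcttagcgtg
Lrg1: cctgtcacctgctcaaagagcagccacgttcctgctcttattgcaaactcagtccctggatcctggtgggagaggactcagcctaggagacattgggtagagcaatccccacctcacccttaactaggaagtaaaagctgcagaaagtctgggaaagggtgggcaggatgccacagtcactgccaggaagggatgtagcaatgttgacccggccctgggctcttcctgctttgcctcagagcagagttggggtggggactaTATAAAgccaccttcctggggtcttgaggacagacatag
Apcs: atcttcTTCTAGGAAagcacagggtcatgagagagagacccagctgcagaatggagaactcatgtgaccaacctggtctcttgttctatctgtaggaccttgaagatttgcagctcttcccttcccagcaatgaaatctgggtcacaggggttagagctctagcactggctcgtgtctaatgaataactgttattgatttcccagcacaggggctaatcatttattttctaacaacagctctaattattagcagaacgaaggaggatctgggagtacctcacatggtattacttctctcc

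C9 held 1 C/EBP match, TTGCATAA, beginning at base 119 of the printed sequence. Steap4 held 1 match to each of the 4 motifs, with the NF-kB match, GGAAAACCCC, first, at base 25, and the C/EBP match last, at base 164. Apcs held a STAT match at base 7, Lrg1 a TATAAA match at base 262, past the start of the gene, and C6 none of the 4. The TATAAA match of Steap4 was on the opposite strand, as TTTATA at base 36, at positions -215 to -210 from the start of the gene. Among all 32851 promoters in the table, the C/EBP motif was found in 10.8%, the STAT motif in 8.30%, the NF-kB motif in 1.63% and TATAAA in 13.6%. Among the 29 member promoters, 7 held the C/EBP motif, 11 the STAT motif, 3 the NF-kB motif and 9 TATAAA, at any position in the window. Steap4 and Nfkbia were the 2 genes with an NF-kB match among the 14 called genes with an entry. A match describes letters in the window and not the binding of a factor.

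At PT 80 ppm, the highest parathion dose profiled, genes for the pore-forming end of complement fell, together with fibrinogen chains and several secreted acute phase proteins. Of the 39 genes, 17 were called lower and 2 higher than in control mice by edgeR's quasi-likelihood test, at a Benjamini-Hochberg adjusted p under 0.05 over all 10415 genes. Over all genes, 8.89% were called lower and 9.75% higher. With a fold change of at least 2 required as well, 7 of the 39 genes were called, against 3.3% of all genes. The median log2 fold change was -0.37 over the 39 genes and 0.01 over all genes tested. Without the 2 PT 80 ppm mice of block 1, which stood apart in several of these genes, 7 genes were called lower and 0 higher, and all 7 were among the 17. In that fit 4.18% of all genes were called lower and 4.32% higher. Of the 19 calls, 4 (C9, C6, C8b and Steap4) were made under all 23 alternatives. These do not include the fits within single blocks, which were read as effect sizes only.

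**Figure D1:**
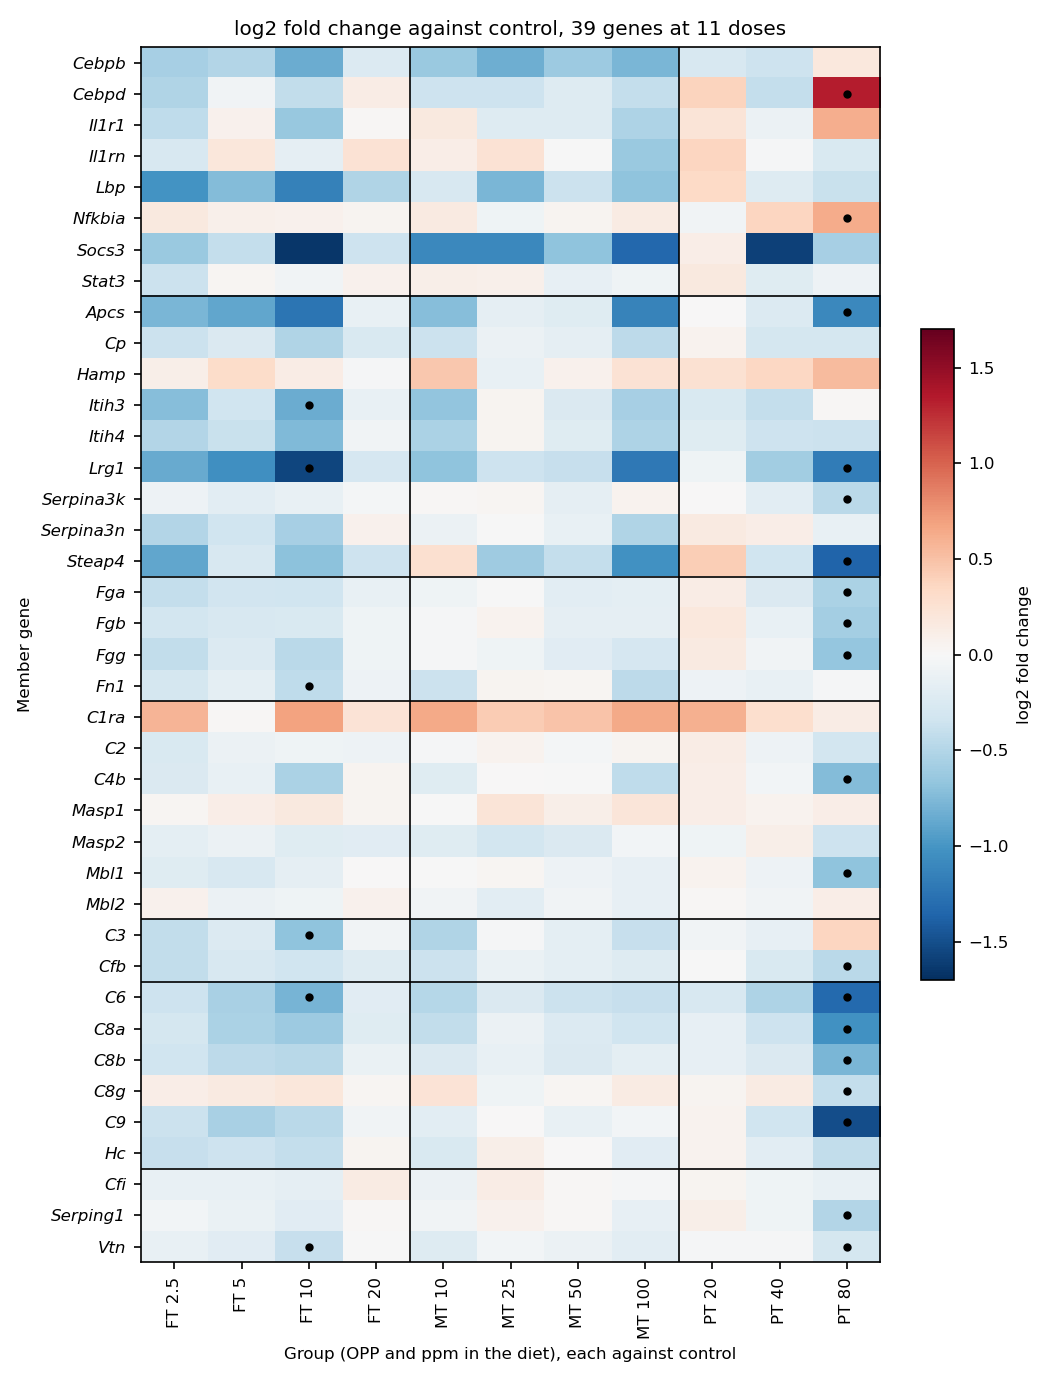
log2 fold change against control (colour scale, blue lower and red higher) of the 39 genes (vertical axis, separated by role) at the 11 doses (horizontal axis, ppm in the diet); dots mark an adjusted p under 0.05. The dots lie in 2 columns, with 19 genes at PT 80 ppm and 6 at FT 10 ppm.

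In the terminal pathway, 5 of 6 genes were lower at PT 80 ppm, with a median log2 fold change of -0.90. C9, whose product polymerizes to form the wall of the pore, ranged from 2351 to 8243 CPM in control mice with a median of 7029, and from 586 to 6127 CPM at PT 80 ppm with a median of 2580. The second highest PT 80 ppm mouse, at 3866 CPM, was below the second lowest control mouse, at 6492 CPM, and the groups overlapped through the lowest control mouse and the highest PT 80 ppm mouse. The log2 fold change was -1.50 ± 0.25 (SE), with an adjusted p of 6.98e-06.

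C6, which binds to C5b as the complex begins to form, was the only one of the 39 genes whose PT 80 ppm mice were all below the lowest control mouse, a separation found in 0.538% of all genes tested. Its level was between 271 and 390 CPM in control mice, with a median of 316, and between 63.2 and 261 CPM at PT 80 ppm, with a median of 126. The log2 fold change was -1.32 ± 0.17 (SE), with an adjusted p of 3.72e-08. The median was 276 CPM at PT 20 ppm and 237 CPM at PT 40 ppm, and neither dose was called, with adjusted p of 0.879 and 0.408. Control mice had the highest median C6 of all 12 groups, and PT 80 ppm and FT 10 ppm the 2 lowest.

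C8a and C8b encode the alpha and beta chains of C8 and lie near each other on chromosome 4 (mm39, C8a from 104672876 to 104733614 and C8b from 104623328 to 104662573). C8a ranged from 393 to 669 CPM in control mice (median 576) and from 23.8 to 487 CPM at PT 80 ppm (median 248). C8b ranged from 822 to 1201 CPM in control mice (median 1036) and from 349 to 996 CPM at PT 80 ppm (median 587). For both genes the ranges overlapped, and the 2 lowest PT 80 ppm mice were those of block 1. The log2 fold change was -1.03 ± 0.24 (SE) for C8a and -0.78 ± 0.15 for C8b, with adjusted p of 0.000978 and 0.000122.

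C8g, the gamma chain, fell less, by 0.41 ± 0.13 (SE) on the log2 scale (adjusted p = 0.0150), and was no longer called without the block 1 mice of PT 80 ppm (adjusted p = 0.181), without the first of them alone (mouse 1) or without control mouse 4 (adjusted p between 0.0567 and 0.0987). Its values at PT 80 ppm, between 95.9 and 265 CPM, lay largely inside the control range of 167 to 305 CPM. Hc, the mouse gene for C5, had a log2 fold change of -0.42 ± 0.18 (SE) and was not called (adjusted p = 0.0956).

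**Figure D2:**
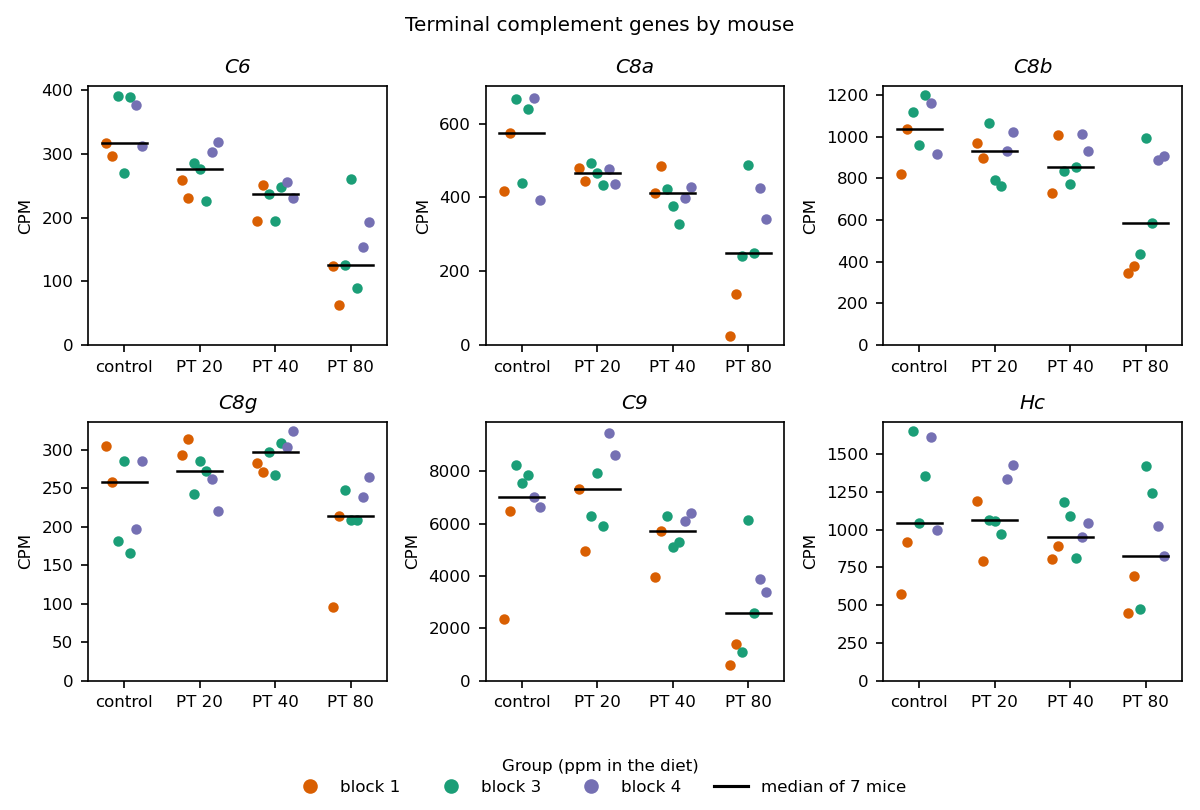
CPM of the 6 terminal complement genes (1 panel each, axis from 0) in each control, PT 20, PT 40 and PT 80 ppm mouse, coloured by experimental block, with the median of 7 mice as a line. C6 has no overlap between PT 80 ppm and control, and the block 1 mice of PT 80 ppm are the lowest 2 for C8a and C8b.

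At the start of the cascade, 2 of 7 genes of the classical and lectin routes were called at PT 80 ppm, both lower. C4b, whose product is cleaved by C1s and by the lectin-bound proteases, was at 66.8 to 106 CPM in control mice (median 80.9) and at 25.9 to 69.4 CPM at PT 80 ppm (median 56.2). Its log2 fold change was -0.74 ± 0.19 (SE, adjusted p = 0.00269), and it was not called without the block 1 mice of PT 80 ppm (adjusted p = 0.0555). C4b has a near-identical copy, C4a, with no row in the table, and whether reads were divided between them was not tested.

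Mbl1, which encodes mannose-binding lectin A, ranged from 909 to 1524 CPM in control mice and from 185 to 1382 CPM at PT 80 ppm, with medians of 1318 and 853. Its log2 fold change was -0.69 ± 0.18 (SE, adjusted p = 0.00302), and the call ended in 3 of the 23 alternatives, among them leaving out the block 1 mice of PT 80 ppm. Within block 4 the difference was 0.08, against -1.49 within block 1 and -0.75 within block 3, read as effect sizes only. The companion lectin Mbl2 and the proteases C1ra, C2, Masp1 and Masp2 were not called, with log2 fold changes between -0.35 and 0.12.

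C3, the hub on which all routes converge, had a log2 fold change of 0.36 ± 0.19 (SE) at PT 80 ppm and was not called (adjusted p = 0.183). Its PT 80 ppm median of 5329 CPM was the highest of the 12 groups, beside 3235 CPM in control mice, and the ranges of 3391 to 6274 and 2597 to 5085 CPM overlapped. Cfb, the protease of the alternative route, had a log2 fold change of -0.45 ± 0.16 (SE, adjusted p = 0.0350). The call did not hold in 12 of the 23 alternatives, among them no filter on low counts, EA mice only and leaving out control mouse 3, 4 or 5 or PT 80 ppm mouse 1 or 7 (adjusted p between 0.0511 and 0.149 without single mice). The sign turned in the authors' adjusted values (0.067) and within block 4 (0.056). Cfb lies beside C2, and their reads may not be fully separate.

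Among the regulators, Serping1 (C1 inhibitor) and Vtn (vitronectin) were lower at PT 80 ppm and Cfi (factor I) was not called. Serping1 ranged from 390 to 670 CPM in control mice and from 289 to 527 CPM at PT 80 ppm, and its log2 fold change was -0.50 ± 0.14 (SE, adjusted p = 0.00831). Serping1 was not called with EA mice only, with control and PT mice only or without the block 1 mice of PT 80 ppm (adjusted p up to 0.104). For Vtn the log2 fold change was -0.30 ± 0.10 (SE, adjusted p = 0.0340). The Vtn call ended in 11 of the 23 alternatives, 6 of which left out a single mouse (control mouse 3, 4, 5 or 6, or PT 80 ppm mouse 1 or 3, adjusted p between 0.0583 and 0.114).

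All 3 fibrinogen chains were lower at PT 80 ppm, and Fn1, the adhesive protein fibronectin, was not called. Fgg (gamma chain) had a median of 9786 CPM in control mice, with a range of 6726 to 12145, and of 6436 CPM at PT 80 ppm, with a range of 5901 to 10951. The log2 fold changes were -0.65 ± 0.17 (SE) for Fgg, -0.57 ± 0.17 for Fgb and -0.54 ± 0.17 for Fga, with adjusted p of 0.00307, 0.0120 and 0.0189. The 3 genes lie within 1 cluster on chromosome 3 (mm39, from 82915030 to 82957170), so they are neighbours as well as partners. Without the block 1 mice of PT 80 ppm only Fgg of the 3 was called (adjusted p = 0.0477). Fgg was itself not called without block and isolator terms, with control and PT mice only or with blocks 3 and 4 only (adjusted p up to 0.157). In the authors' adjusted values the signs of Fgg (0.11) and Fga (0.079) were opposite to those in the counts. The Fgb call ended in 4 alternatives and the Fga call in 7, 1 of them without PT 80 ppm mouse 1 (adjusted p = 0.0648).

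Of the 9 secreted and other acute phase genes, 4 were lower at PT 80 ppm and 0 higher. Lrg1, leucine-rich alpha-2-glycoprotein, ranged from 76.3 to 626 CPM in control mice (median 177) and from 65.3 to 176 CPM at PT 80 ppm (median 99.8). Apcs, serum amyloid P, ranged from 150 to 634 CPM (median 365) and from 110 to 313 CPM (median 170). The ranges overlapped for both, and control mice 3, 5 and 6 were the 3 highest control mice in each. The log2 fold changes were -1.18 ± 0.42 (SE) for Lrg1 and -1.09 ± 0.38 for Apcs, with an adjusted p of 0.0348 for each. Of the 23 alternatives, 11 ended the Lrg1 call and 12 the Apcs call, among them EA mice only and the authors' adjusted values (adjusted p up to 0.592 and 0.715). The adjusted values were tested by an F test over control and all PT doses, and not for PT 80 ppm against control alone. Lrg1 was not called without control mouse 3 or 5 or without PT 80 ppm mouse 1, 2, 3 or 7 (adjusted p between 0.0554 and 0.158). Apcs was not called without control mouse 3, 4 or 5 or without PT 80 ppm mouse 1, 3, 4 or 7 (adjusted p between 0.0505 and 0.11).

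Steap4, a metalloreductase induced by inflammatory cytokines, was near the low end of the count range, with 17 to 57 counts per control mouse and 7 to 30 per PT 80 ppm mouse. In CPM it was between 1.45 and 4.76 in control mice and between 0.588 and 2.77 at PT 80 ppm, with a log2 fold change of -1.37 ± 0.36 (SE, adjusted p = 0.00380). Serpina3k, of a family of closely related serine protease inhibitors whose probes may cross-detect, fell by 0.45 ± 0.13 (SE) on the log2 scale (adjusted p = 0.0112). Its range widened from 34000 to 45730 CPM in control mice to 15978 to 58573 CPM at PT 80 ppm, and within block 1 the difference had the opposite sign, at 0.09. Its log2 fold change was -0.73 without the block 1 mice and -0.33 without PT 80 ppm mouse 3, where it was not called (adjusted p = 0.0501). The others, Serpina3n, Itih3, Itih4, Cp (ceruloplasmin) and Hamp (hepcidin), were not called, with log2 fold changes between -0.37 and 0.54.

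The 2 genes called higher at PT 80 ppm were both among the 8 of the receptors and signalling group. Cebpd, which encodes C/EBP delta, was at 3.66 to 10.4 CPM in control mice (median 5.71) and at 5.46 to 62.4 CPM at PT 80 ppm (median 7.27). The 2 block 1 mice had 62.4 and 25.8 CPM, and the 5 other PT 80 ppm mice had between 5.46 and 9.61 CPM, inside the control range. The log2 fold change was 1.34 ± 0.36 (SE, adjusted p = 0.00542) with all mice and 0.08 ± 0.31 (adjusted p = 0.927) without those 2 mice, and Cebpd was also not called without mouse 1 alone (adjusted p = 0.17).

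Nfkbia, the inhibitor of NF-kB that is itself an NF-kB target, had 21.1 to 65.5 CPM at PT 80 ppm and 15.8 to 57.7 CPM in control mice. Its log2 fold change was 0.64 ± 0.20 (SE, adjusted p = 0.0161), and 0.39 ± 0.21 (adjusted p = 0.274) without the 2 mice, and Nfkbia was also not called without PT 80 ppm mouse 1 alone or without control mouse 2 (adjusted p between 0.0609 and 0.0801). Stat3, Socs3, Cebpb, Il1r1, Il1rn and Lbp, which carry or damp the interleukin and lipopolysaccharide signals, were not called, with log2 fold changes between -0.56 and 0.62. C9, C6, C8a, C8b, Fgg, Steap4 and Serpina3k were the 7 genes called without the 2 mice, at log2 fold changes between -1.25 and -0.53.

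**Figure D3:**
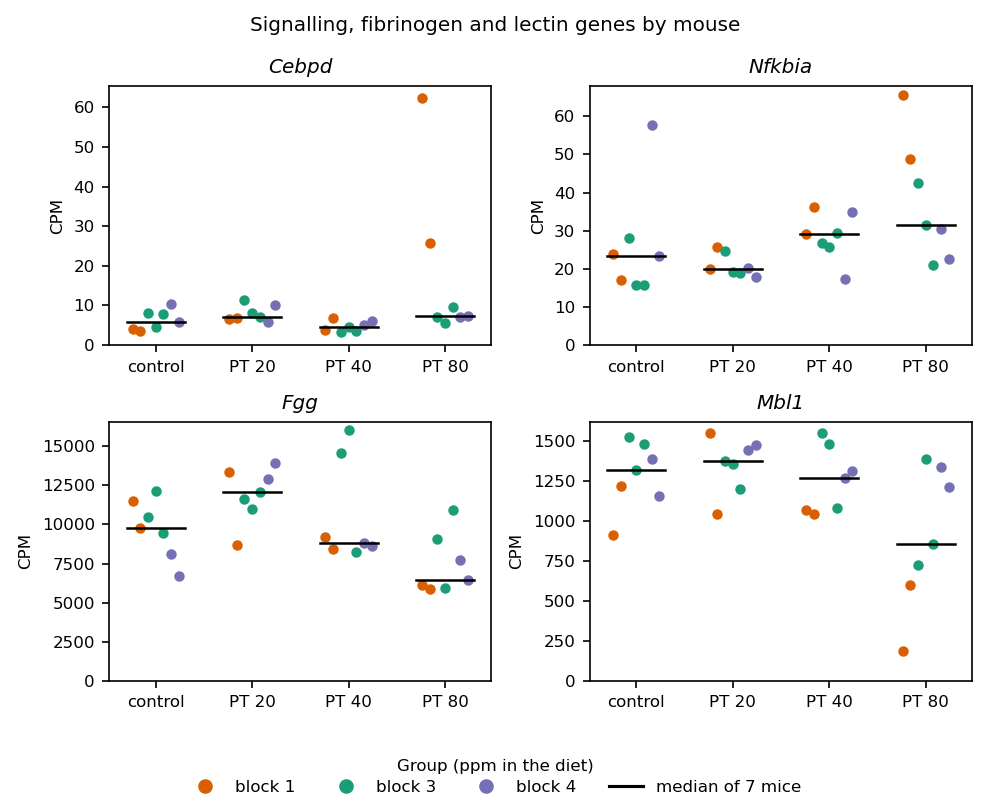
CPM of Cebpd, Nfkbia, Fgg and Mbl1 (1 panel each, axis from 0) in each control, PT 20, PT 40 and PT 80 ppm mouse, coloured by block, with the median of 7 mice as a line. The 2 block 1 mice of PT 80 ppm are the highest for Cebpd, at 62.4 and 25.8 CPM, and the lowest 2 for Mbl1.

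**Figure D4:**
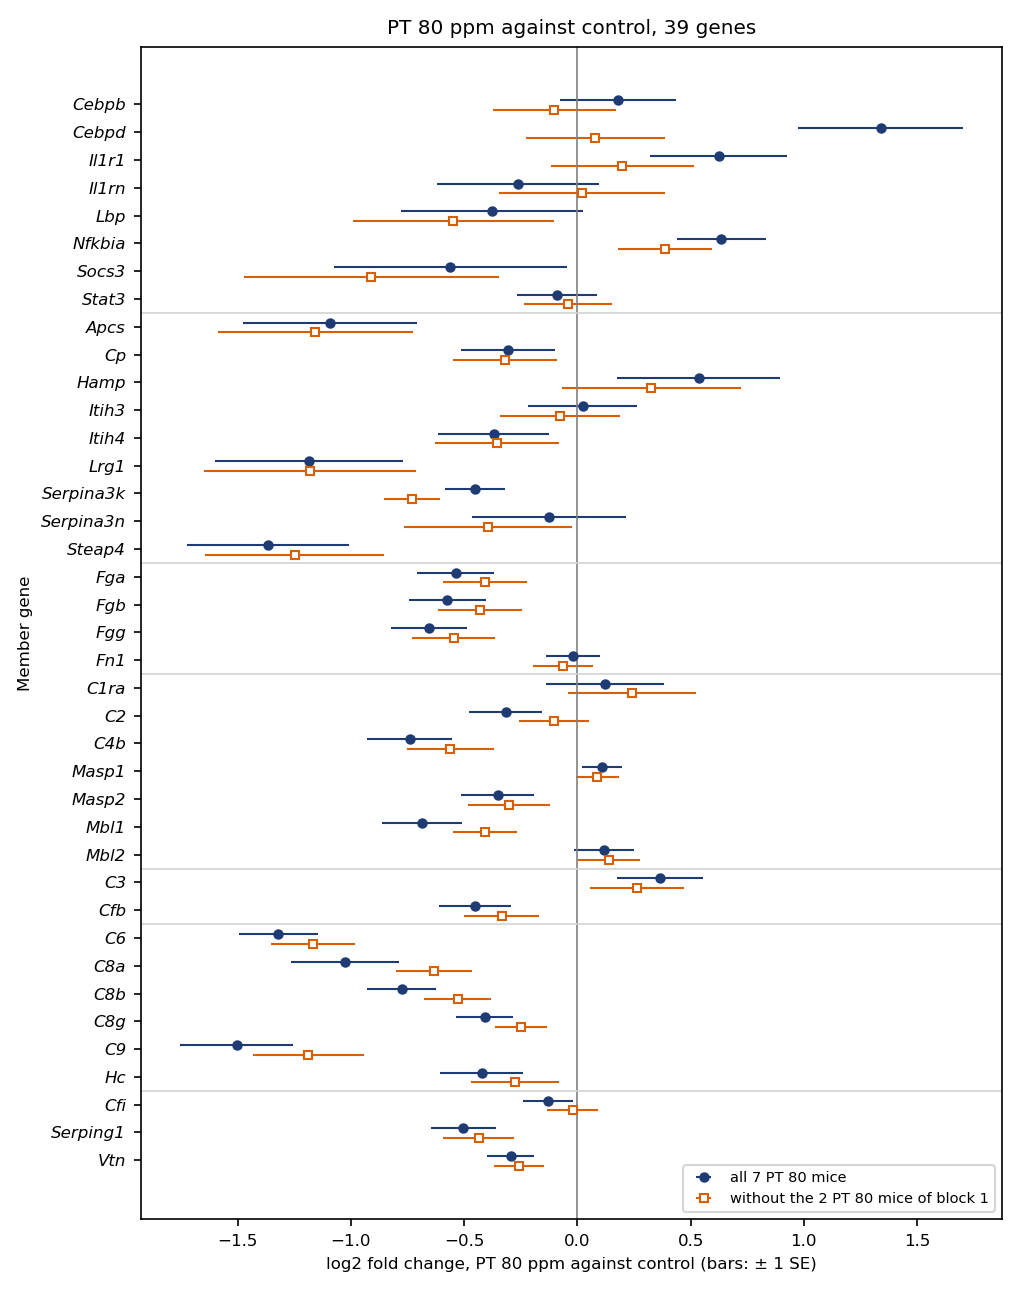
log2 fold change of the 39 genes at PT 80 ppm against control (horizontal axis, bars ± 1 SE) with all 7 PT 80 ppm mice (filled circles) and without the 2 of block 1 (open squares). The terminal complement genes stay below 0 in both, and Cebpd moves from 1.34 to 0.08.

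PT 80 ppm was also compared with the mean of the PT 20 and 40 ppm groups, in place of the control group. The PT 80 ppm mice are shared, and both comparisons come from the same fit of all mice. They therefore share the estimate of the spread and the block and isolator terms. Here 16 of the 39 genes were lower and 3 higher, against 12.4% and 13.4% of all genes. C9 had a log2 fold change of -1.37 ± 0.22 (SE) against the lower doses, and C6 of -0.93 ± 0.15. C3 was higher (0.47 ± 0.16, adjusted p = 0.0199) and Masp2 lower (-0.36 ± 0.14, adjusted p = 0.0447), whereas Lrg1 and Cfb were not called (adjusted p = 0.0645 and 0.0730). Without the 2 PT 80 ppm mice of block 1 the counts were 10 lower and 0 higher, against 5.36% and 6.37% of all genes, and neither C3 (0.37, adjusted p = 0.163) nor Masp2 (-0.31) was called. Apcs, Fga, Vtn, C8a (-0.39, adjusted p = 0.0711) and C8b (-0.34, adjusted p = 0.0739) were called lower with all mice but not in that fit. C3 was also not called without PT 80 ppm mouse 1 or 5 (adjusted p between 0.0574 and 0.0597), and the Masp2 call ended in 10 of 15 alternatives. Against control, 0 of the 39 genes were called at PT 20 or PT 40 ppm by edgeR, beside 0.0096% and 0% of all genes. At an unadjusted p under 0.05 there were 1 and 2 genes, beside 5.91% and 8.51% of all genes, and 0 were called by DESeq2.

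At FT 10 ppm, 6 of the 39 genes were lower and 0 higher than in control mice, against 0.739% and 0.835% of all genes. The 6 came from 5 roles: C6, C3, Fn1, Vtn, Lrg1 and Itih3, a hyaluronan-binding protein of the inter-alpha-trypsin inhibitor family. The median log2 fold change was -0.41 over the 39 genes and -0.01 over all genes, and 34 of the 39 were below 0, beside 51.3% of all genes. The adjusted p lay between 0.0224 (C6) and 0.0499 (Itih3), close to the threshold. The count of genes called lower ranged from 0 to 10 when single FT 10 ppm or control mice were left out, and it was 0 without control mouse 5 and 0 without FT 10 ppm mouse 4.

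C6 at FT 10 ppm ranged from 131 to 312 CPM, with a median of 179, beside the 271 to 390 CPM of control mice. Of its 7 mice, 6 were below the lowest control mouse. The log2 fold change was -0.79 ± 0.17 (SE), and the C6 call ended in 4 of 22 alternatives, among them leaving out control mouse 5 or FT 10 ppm mouse 4 (adjusted p between 0.0692 and 0.112). C3 ranged from 1798 to 2971 CPM (median 2251) and overlapped the control range of 2597 to 5085 CPM, with a log2 fold change of -0.68 ± 0.19 (SE, adjusted p = 0.0463). Lrg1 ranged from 39.3 to 172 CPM and had the largest change of the 6, -1.56 ± 0.42 (SE, adjusted p = 0.0444). The C3 call ended in 15 of the 22 alternatives and the Lrg1 call in 13.

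C1ra, a protease of the C1 complex, was the one gene of the 39 whose FT 10 ppm mice were all above the highest control mouse, a separation found in 0.298% of all genes. It ranged from 84.7 to 130 CPM at FT 10 ppm and from 16.2 to 77.4 CPM in control mice, and was not called (log2 fold change 0.69 ± 0.26, SE, adjusted p = 0.135). C1rb, a near-identical copy of C1ra, had a log2 fold change of the opposite sign at this dose, -0.33 ± 0.11 (SE), and was not called (adjusted p = 0.0885). Whether reads were divided between the 2 genes was not tested.

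At the other doses 0 of the 39 genes were called by edgeR, beside 0.0768% of all genes at MT 100 ppm, 0.0096% at FT 2.5 and at MT 50 ppm, and 0% at FT 5, FT 20, MT 10 and MT 25 ppm. At an unadjusted p under 0.05 the fenthion groups had 17 genes at 2.5 ppm, 6 at 5 ppm and 0 at 20 ppm, beside 10.7%, 7.59% and 3.98% of all genes. The methidathion groups had 10, 3, 2 and 14 genes in order of dose, beside 9.97%, 5.79%, 3.99% and 13.7% of all genes. DESeq2 called 1 gene at MT 100 ppm and 0 at the other doses of this list. The smallest adjusted p by edgeR among these doses was 0.0691, for Fn1 at MT 100 ppm. Every dose was compared with the same 7 control mice, so that the signs across doses are not independent, and the median over the 39 genes lay between -0.36 at FT 2.5 ppm and 0.05 at PT 20 ppm.

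The fenthion doses did not follow the order of dose. The median C6 was 220 CPM at FT 2.5 ppm, 231 at FT 5 ppm, 179 at FT 10 ppm and 283 at FT 20 ppm. At FT 20 ppm the log2 fold change was -0.19 ± 0.17 (SE) and the range of 241 to 400 CPM covered that of the control mice. FT 10 ppm had the lowest median of the 12 groups in 14 of the 39 genes and PT 80 ppm in 11. PT 20 ppm had the highest median in 12 genes, PT 80 ppm in 10 and control mice in 7. The order of group medians was not taken over all genes, so whether these counts differ from those of other genes was not tested.

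Fenthion could be set beside methidathion at 10 ppm and beside parathion at 20 ppm. In these 2 pairs 0 of the 39 genes were called by edgeR, with 6 and 2 at an unadjusted p under 0.05, beside 7.65% and 3.4% of all genes, and 0 by DESeq2. The largest difference in the first pair was in Steap4, at -0.97 in log2 units (95% confidence interval -1.61 to -0.34), with an adjusted p of 0.557 over all genes. In the second pair Lbp, the lipopolysaccharide-binding protein, differed by -0.85 (95% confidence interval -1.62 to -0.08), with an adjusted p of 0.999 over all genes. These genes were picked as the largest of 39 differences in each pair. PT 80 ppm had no matched dose of the other compounds.

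The 39 genes varied among control mice by more than most genes. The SD of log2(CPM + 1) had a median of 0.40 over the 39 genes and 0.27 over all genes tested, and 30 of the 39 were above the latter. It was smallest for Serpina3k (0.13), Masp1 (0.16) and Vtn (0.16), and largest for Lrg1 (1.17), Hamp (1.02) and Serpina3n (0.94). At PT 80 ppm the medians were 0.55 and 0.32, the largest of the 12 groups for both, and in the 10 other dosed groups they were between 0.25 and 0.35 and between 0.20 and 0.27.

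The extremes fell mostly on a few control mice. Control mouse 3 was the highest of the 7 in 16 genes and mouse 5 in 9, while mouse 1 was the lowest in 15 and mouse 7 in 12. Mice 3 and 5 were of block 3, mouse 1 of block 1 and mouse 7 of block 4, and mice 3 and 6 were isolated by EPA. The SDs and these ranks use CPM not adjusted for block or isolator. The parts of block and isolator in this spread were therefore not separated from differences between mice. Serum amyloid A2 (Saa2), the classical acute phase marker and not one of the 39, was at 33476 and 40229 CPM in control mice 3 and 5, at 99.8 and 580 CPM in mice 1 and 7, and at 2112, 18477 and 21409 CPM in mice 2, 4 and 6. At PT 80 ppm Saa2 was between 5.52 and 196 CPM. The part of this difference between control mice in the calls was not tested beyond leaving out each of them.

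**Figure D5:**
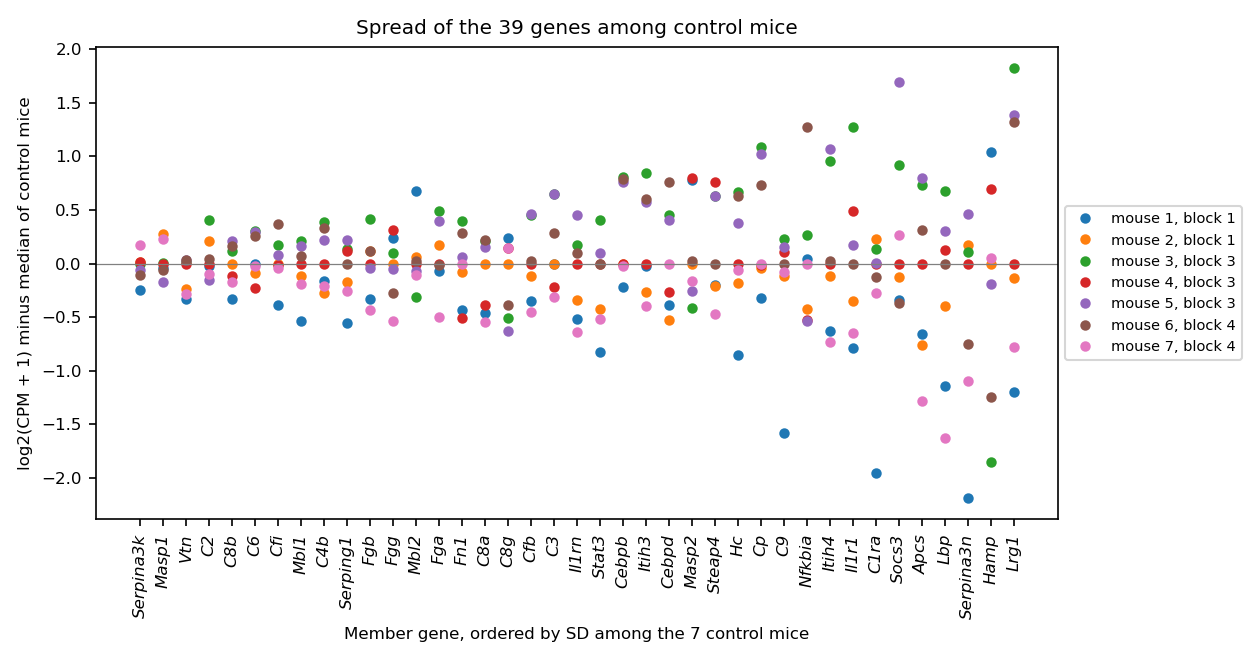
log2(CPM + 1) of the 39 genes in each of the 7 control mice (1 colour each), minus the median of the 7 (vertical axis), with genes ordered by their SD (horizontal axis). The SD rises from 0.13 for Serpina3k to 1.17 for Lrg1, and mice 3 and 5 lie at the top, and 1 and 7 at the bottom, for many of the genes on the right.

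Calls between experimental blocks were about as frequent among the 39 genes as among all genes, with 17 of 39 beside 4169 of 10415 between blocks 3 and 1, and 12 of 39 beside 3964 of 10415 between blocks 4 and 1. Between blocks 3 and 1, 12 genes were higher and 5 lower in block 3, against 18.8% and 21.2% of all genes, and between blocks 4 and 1, 9 were higher and 3 lower, against 18.2% and 19.9%. Higher in both blocks than in block 1 were C6, C9, Hc, Cfb, Mbl1, Stat3 and Itih3, with log2 differences between 0.22 and 0.58. Hamp, the iron regulatory hormone, was lower in both, by 0.58 and 0.87 on the log2 scale. Between blocks 4 and 3, 0 of the 39 genes were called by edgeR (0.0384% of all genes), 11 had an unadjusted p under 0.05 (6.86% of all genes), and DESeq2 called 0. Within single blocks, PT 80 ppm was compared with control by effect size only. In blocks 1, 3 and 4 the log2 difference was -2.22, -1.44 and -0.93 for C9. It was -1.82, -1.18 and -0.90 for C6, and -1.44, -0.82 and -0.08 for C8b.

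RNA isolated by EPA differed from RNA isolated by EA in 9 of the 39 genes, 2 higher and 7 lower, against 19.6% and 19% of all genes. The largest difference was in Hamp (-1.46 ± 0.32, SE), followed by Steap4 (-0.83 ± 0.30), Fgg (-0.63 ± 0.14) and C8g (-0.60 ± 0.10). Since 2 control mice and 0 PT 80 ppm mice were isolated by EPA, the count of genes lower at PT 80 ppm was also taken with EA mice alone, where it was 10, against 7.33% of all genes.

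Of the other genes of the pathway, 3 of 18 further complement genes tested were lower at PT 80 ppm and 0 higher: C4bp (-0.62), a regulator of C4b, Clu (-0.32) and C1rb (-0.31), as log2 fold changes. Of 25 further coagulation genes, 4 were higher and 3 lower, close to the 9.75% and 8.89% of all genes, among them thrombomodulin (Thbd, 0.85), Serpina10 (-0.86) and factor XI (F11, -0.77). Of 29 further acute phase and cytokine signalling genes, 9 were lower and 1 higher, led by Saa2 (-7.41 ± 1.72, SE), Saa1 (-5.99 ± 1.36) and Orm2 (-4.48 ± 1.31), the last an orosomucoid. Of 10 negative acute phase genes, whose plasma proteins decline in inflammation, 3 were higher and 0 lower: Rbp4 (0.67), Apoh (0.39) and Ahsg (0.31). The others were not called, among them Alb (-0.07), Ttr (-0.22) and Apoa1 (0.24), which are also in the list of hepatocyte markers.

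Markers of cell types were read in the same fit, where 9.75% of all genes were called higher and 8.89% lower at PT 80 ppm. Of 7 hepatocyte markers, 4 were higher at PT 80 ppm (Tat, Cyp2e1, Cps1 and Tdo2). As log2 fold changes, Alb (-0.07), Ttr (-0.22) and Apoa1 (0.24) were not called. The summed level of the 7 was 41538 to 63002 CPM (median 50622), beside 27135 to 54022 CPM (median 31461) in control mice. Genes with many counts weigh most in this sum: the median count over all mice was 151562.5 for Apoa1, 109038.5 for Cyp2e1 and 68 for Tat. Of these, Cyp2e1 had a log2 fold change of 0.98. Of 6 Kupffer cell (resident macrophage) markers tested, 4 were lower (Cd5l, Clec4f, Cd68 and Csf1r). The summed level of all 8 listed was 19.3 to 113 CPM (median 95.6), beside 96.0 to 174 CPM (median 119) in control mice. Cd5l, with a median count of 833.5, weighs most in that sum. Marker values without the block 1 mice of PT 80 ppm are not given here. The 1 cholangiocyte marker tested, Spp1, and 1 of 4 other leukocyte markers, Ptprc, were lower, 1 of 4 stellate cell markers, Dcn, was higher, and 0 of 6 endothelial markers were called by edgeR. The part of these marker changes in the complement and acute phase results was not tested.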

How the data were processed

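TempO-Seq profiles came from 84 livers, 7 for each of 12 groups. After trimming, the authors used STAR for alignment to mm39 and Partek E/M to estimate counts per Ensembl gene, and the deposited values are these estimated counts without normalization, of which 18.7% are not whole. The second deposited table was entered as a score: it holds log2 CPM that the authors adjusted for block and RNA isolator, and it served only as an alternative. All columns were mapped to mice by their labels, with 0 left over. Gene positions come from GENCODE on GRCm39 (mm39), and promoters from RefSeq.

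Counts were rounded and fitted with edgeR 4.0.16 in R 4.3.3 (TMM scaling, quasi-likelihood test, group, block and isolator as terms, all mice) over 10415 genes (median count above 8); adjusted p are Benjamini-Hochberg values over these genes. CPM use the total count of each mouse. Alternatives were DESeq2 1.42.0, RLE scaling, no filter, no block or isolator, EA mice only and 1 OPP with control. Each control, PT 80 ppm and FT 10 ppm mouse was also left out, and the authors' adjusted values were used. The adjusted values were tested by an F test over control and all doses of 1 OPP, so its doses share the same p. The fits were tested on simulated data. Replicates are separate mice, but diets were allotted by cage, per the study's methods, and the labels give no cage, so mice of 1 group and block may have shared one while the tests treat them as independent. The 95% confidence intervals and SEs come from the quasi-likelihood fit, whose spread is estimated over the mice, and so include variation between mice. The CPM of 3 counts is a floor for counting only, and reads without molecular identifiers are not independent molecules. TempO-Seq levels were not compared between genes, since probes differ.

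The 39 genes, the other gene lists and the tests were chosen with earlier results of these data known. All 39 genes were to be named by role, with the 3 largest called changes of each other list at PT 80 ppm.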

Additional observations from a re-analysis of the deposited data

Results flagged for a closer look

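In 6 cases a single mouse lay far from the 6 others of its group in a gene called at PT 80 ppm or FT 10 ppm, by a gap larger than Dixon's 95% critical value for the gap over the group's range on the log2(CPM + 1) scale. Chance alone flags about 1 in 20 groups, and 47 sets of 7 values, each a gene in a group, were looked at. In control mice the case was C9, at 2351 CPM in mouse 1 of block 1, with the next lowest mouse at 6492 CPM. The 5 others were all PT 80 ppm mouse 1 of block 1, each time as the lowest, so that they are not separate cases. It had 25.9 CPM of C4b beside a next lowest of 48.8, 23.8 CPM of C8a beside 138, 95.9 CPM of C8g beside 209, 771 CPM of Cfb beside 1388, and 185 CPM of Mbl1 beside 599. Without this mouse 11 genes were called lower and 0 higher at PT 80 ppm, and C8g, Cfb, Fga, Vtn, Apcs, Lrg1, Cebpd and Nfkbia were no longer called.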

How the results depend on the processing

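At PT 80 ppm, DESeq2 and RLE scaling gave 17 genes lower and 2 higher, as did edgeR. Genes lower numbered 10 with EA mice only, 5 with control and PT mice only, 7 without both block 1 mice of PT 80 ppm and 8 with blocks 3 and 4 only, the last 2 settings being chosen after seeing the data; with single mice left out they were 11 to 18. Against control, C9, C6, C8b and Steap4 were called lower under every alternative other than the fits within single blocks, which were read as effect sizes only. Within block 4 their log2 differences from control were -0.93, -0.90, -0.08 and -0.43, in that order. Genes higher numbered 1 without block and isolator, 0 without both block 1 mice, 0 with blocks 3 and 4 only and 0 to 2 with single mice left out. Genes past 2-fold, 7 in all, numbered 4 with EA mice only, 4 with control and PT mice only, 3 without both block 1 mice, 3 with blocks 3 and 4 only, 3 with the adjusted values and F test, and 3 to 7 with single mice left out. Against the lower PT doses, genes lower numbered 10 without both block 1 mice and 10 with blocks 3 and 4 only (14 to 18 with single mice left out), and genes higher 0 in both (0 to 5).

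At FT 10 ppm, genes lower numbered 1 without the filter, 1 with EA mice only, 0 with control and FT mice only, 0 with blocks 3 and 4 only, and 0 to 10 with single mice left out. DESeq2 and the fit of control and MT mice called 1 gene each for the highest methidathion dose. With the adjusted values, an F test over the doses of 1 OPP and a 2-fold change, 1 gene each was called at FT 2.5, FT 5, FT 20, MT 50, PT 20 and PT 40 ppm, and the methidathion doses of 10, 25 and 100 ppm had 4, 2 and 5.

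The sign turned at PT 80 ppm in the adjusted values for Fga (0.079), Fgg (0.11) and Cfb (0.067), within block 1 for Serpina3k (0.090), within block 3 for Cebpd (-0.034), within block 4 for Cebpd (-0.075), Nfkbia (-0.19), Cfb (0.056) and Mbl1 (0.080), and with blocks 3 and 4 only for Cebpd (-0.085). At FT 10 ppm it turned in the adjusted values for Itih3 (0.26). Except where fewer mice entered, the cause was not tested. The median SD among control mice was 0.42 and 0.35 with pseudocounts of 0.1 and 5, and 0.35 to 0.42 with single mice left out. No paired analysis was possible because replicate numbers were given in accession order and pair no mice; block is a term of the model. Genes of few counts, such as Steap4 with 7 counts in 1 mouse, are limited by depth.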
